A study of Drosophila melanogaster with 24 samples.

Results

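Hsp83, Hsc70-4, DnaJ-1, Droj2, Hop, stv and Hsf are 7 genes of the cytosolic folding machinery of Drosophila melanogaster and of its transcriptional control, taken as a named set from the 15682 genes counted in each library. Their read counts were followed over 24 libraries in 8 groups of 3, each made from males aged 10 days. Of these libraries 18 came from thoraces, which are mostly skeletal muscle, and 6 from heads. All flies carried Mhc, whose promoter acts in muscle, as the driver.

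The knockdown thoraces were Mhc>Ter94RNAi, Mhc>ProsB5RNAi, Mhc>ProsB1RNAi and Mhc>CG6272RNAi, and the control RNAi thoraces were Mhc>whiteRNAi and Mhc>GFPRNAi. Heads came from Mhc>Amyrel flies, which overexpressed Amyrel in muscle, and from isogenic Mhc>+ flies. ProsB1 and ProsB5 stand for Prosbeta1 and Prosbeta5, catalytic subunits of the 20S proteasome, and Ter94 for TER94, the fly p97 ATPase, which pulls ubiquitylated proteins out of larger assemblies. CG6272 is a bZIP transcription factor of the C/EBP type, and Amyrel is related to the amylases. Whole thoraces and heads were sequenced, so RNA of other tissues was counted with that of muscle, and in such samples fewer cells of a type and less RNA per cell cannot be told apart.

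Hsp70 proteins bind stretches of unfolded protein and release them in an ATP cycle that J-domain proteins start and nucleotide exchange factors complete. Hop bridges Hsp70 and Hsp90, so that a client protein can pass from one to the other, and the BAG-domain protein encoded by stv (starvin) joins Hsp70 to the removal of damaged proteins by autophagy in muscle. Heat shock factor, the product of Hsf, is kept inactive by chaperones, and on proteotoxic stress it binds the promoters of heat shock genes, Hsp83 and the inducible Hsp70 genes among them. Its activity is set mostly after translation, so its mRNA level is not a measure of it.

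Against control RNAi thoraces, the levels of these genes that passed the test lay between 0.58 and 1.29 times the control level. In Ter94 RNAi thoraces 4 of the 7 rose and 1 fell against control RNAi thoraces, in edgeR's quasi-likelihood test with Benjamini-Hochberg adjustment over all tested genes and a threshold of 0.05. Of all 11262 genes tested in that comparison 58.1% passed, 29.7% higher and 28.4% lower, so 5 of 7 is near the background. In ProsB5 RNAi thoraces 2 rose and 1 fell, where 31.0% of all genes were called, 17.3% higher and 13.8% lower. In ProsB1 RNAi thoraces 0 of 7 passed, where 21.3% were called, 11.6% higher and 9.73% lower. DESeq2 also called 0 of the 7 for ProsB1 RNAi, against 24% of all genes, and 0 had an unadjusted p under 0.05, against 33.5% of all genes. In CG6272 RNAi thoraces 4 fell and 0 rose, where 22.8% of 10784 genes were called, 13.3% higher and 9.53% lower. The CG6272 RNAi libraries are titled in another form than the other thoraces, so knockdown and batch cannot be told apart in their values. In heads with muscle Amyrel 0 of 7 passed, where 1.51% of 10748 genes were called, 0.791% higher and 0.716% lower. Of the 7, 5 had an unadjusted p under 0.05 there, against 14.1% of all genes, and DESeq2 called 2, against 4.42% of all genes.

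The libraries of a knockdown were also compared one by one with those of the controls. In Ter94 RNAi thoraces 4 of the 7 lay above all 6 controls (Hsc70-4, Hop, stv and Hsf), as 24% of all genes did. In ProsB5 RNAi thoraces 1 of the 7 lay below them (Droj2), as 11.5% of all genes did, and in CG6272 RNAi thoraces 2 did (Droj2 and stv), as 13.5% of all genes did. The median log2 fold change of the 7 genes was 0.31 for Ter94, 0.11 for ProsB5, -0.056 for ProsB1 and -0.37 for CG6272 RNAi and 0.35 for Amyrel heads. Over all genes tested the median lay at 0.004, 0.015, -0.002, 0.021 and 0.002 in the same order.

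**Figure D1:**
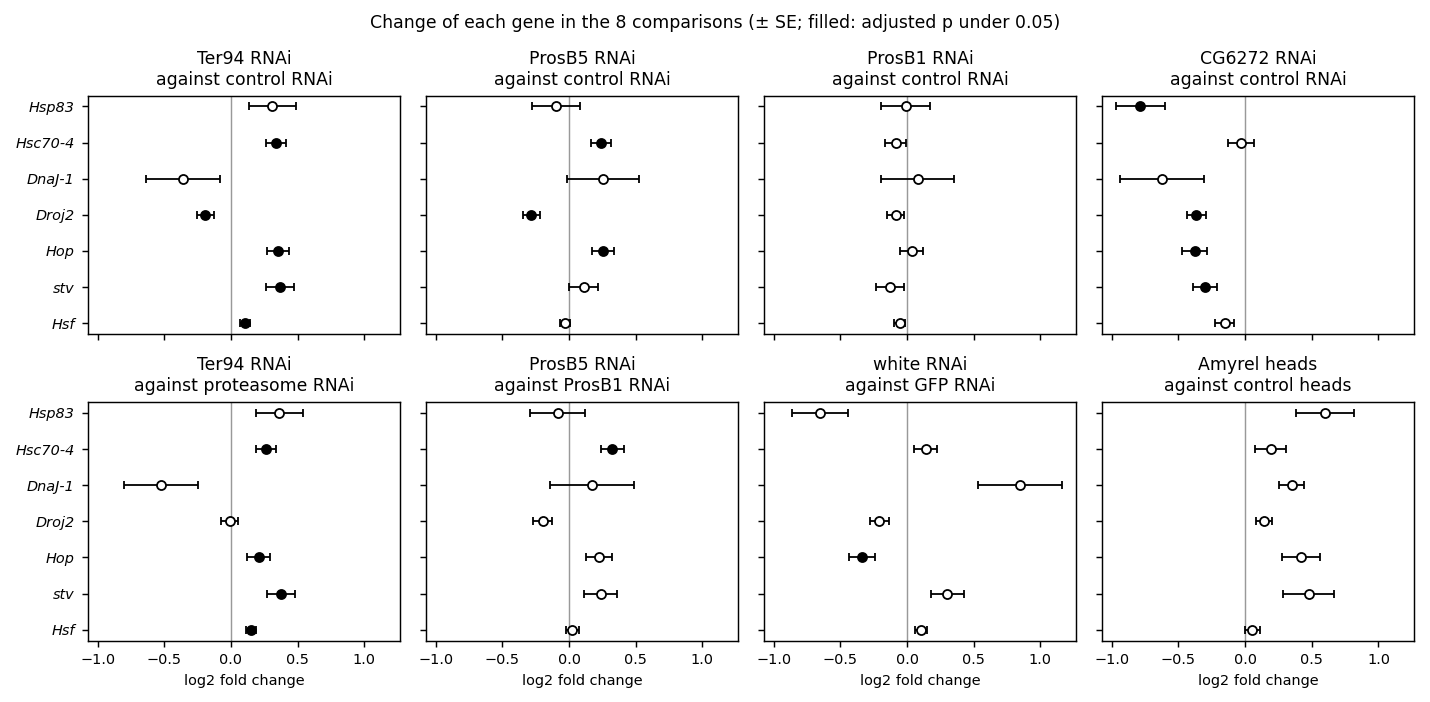
Log2 fold change of each gene (horizontal axis) in the 8 comparisons, 1 panel each. Points are edgeR estimates, whiskers 1 SE, and filled points passed at an adjusted p under 0.05. Filled points lie mostly right of 0 for Ter94 RNAi and all left of 0 for CG6272 RNAi, and the ProsB1 RNAi and Amyrel panels have none.

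The libraries held 28.87 to 79.16 M reads in genes in thoraces and 47.54 to 75.69 M in heads, and the 7 genes together took 0.305 to 0.676% of them. Levels are given in CPM (reads in a gene, scaled to a common library total), with edgeR's default TMM scaling over all 24 libraries. Its factors were 1.076 to 1.089 in Ter94 RNAi and 0.909 to 0.939 in control RNAi libraries. TMM takes most genes as unchanged, whereas 58.1% were called for Ter94 RNAi. The smallest called log2 fold changes there, -0.19 for Droj2 and 0.11 for Hsf, rest on that scaling, and no scaling free of this assumption was tried. Each targeted gene was lower in its knockdown, with a log2 fold change of -0.61 for TER94, -1.05 for Prosbeta5, -0.93 for Prosbeta1 and -0.94 for CG6272, except that w, the target of white RNAi, was not (0.18, adjusted p = 0.529). The level of w was 79.1 ± 5.5 CPM in Ter94 RNAi thoraces, against 1.69 ± 0.14 CPM in control RNAi thoraces (SD, n = 3 and n = 6), and 20.7 ± 0.84 CPM in Amyrel heads, against 8.97 ± 0.6 CPM in control heads (SD, n = 3 each). The Ter94 RNAi and Amyrel libraries thus differed from their controls in w too, and the part of that difference in the results was not tested. Amyrel was higher in Amyrel heads by 6.19 log2 units, at 6.41 ± 0.25 CPM, against 0.084 ± 0.027 CPM in control heads (SD, n = 3 each). The size of that value thus rests on a control level near the floor. Photoreceptor and accessory gland RNA was present in some thorax libraries. The opsin gene ninaE stood above 100 CPM in GFP RNAi replicates 2 and 3 and white RNAi replicate 1, and Acp36DE above 5 CPM in ProsB5 RNAi replicate 1, white RNAi replicates 1 and 2 and GFP RNAi replicate 1.

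Per kilobase of exon, the scale on which genes can be compared, Hsc70-4 was the most abundant of the 7 in every group and Hsf the least abundant in every group. In Ter94 RNAi thoraces Hsc70-4 averaged 905 ± 84 CPM per kb and Hsf 23.5 ± 0.14, against 713 ± 60 and 21.7 ± 1.19 in control RNAi thoraces (SD, n = 3 and n = 6). Hsp83 followed with group means of 203 to 543 CPM per kb and Droj2 with 141 to 284. Group means of DnaJ-1 ran from 51.1 to 108 CPM per kb, those of stv from 45.3 to 97.6 and those of Hop from 24.4 to 40.8. Of the J-domain genes, Droj2 exceeded DnaJ-1 in every library, by 1.24 to 5.84 times per kb.

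**Figure D2:**
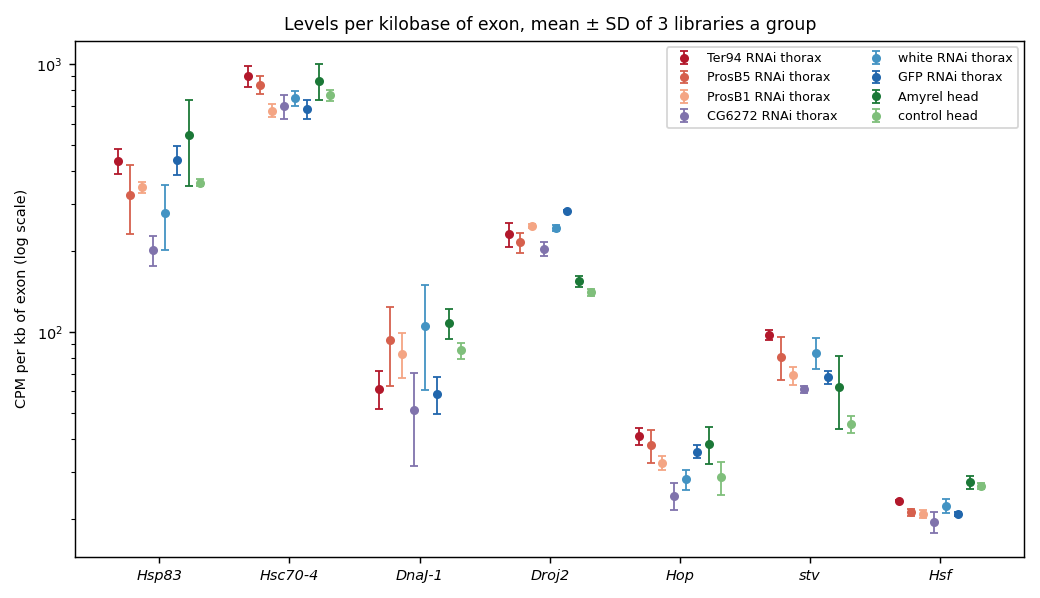
Mean level of each gene in CPM per kilobase of exon (vertical axis, log scale) by group, with whiskers for the SD of 3 libraries. Hsc70-4 is highest and Hsf lowest in every group, while DnaJ-1 and stv cover nearly the same range and those of Hsp83 and Droj2, and of Hop and Hsf, overlap.

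Hsp83 encodes the fly Hsp90, which completes the folding of kinases and receptors. It stood at 575, 540 and 686 CPM in the CG6272 RNAi replicates, against 575, 885 and 1015 CPM in white RNAi and 1396, 1112 and 1384 CPM in GFP RNAi thoraces. The CG6272 RNAi libraries lay below all GFP RNAi libraries, and 2 of 3 lay below all 6 controls. Of these, replicate 1 was nearly level with white RNAi replicate 1 (574.8 against 575.0 CPM). Hsp83 fell in CG6272 RNAi thoraces to 0.58 times the control level (log2 -0.79 ± 0.18, adjusted p = 0.0191). Against white RNAi alone the log2 fold change was -0.46 (adjusted p = 0.146), and without CG6272 RNAi replicate 1 the adjusted p was 0.0561, within a range of 0.000158 to 0.146 over 18 alternatives. In Ter94 RNAi thoraces Hsp83 stood at 1447, 1199 and 1217 CPM, overlapping the controls (log2 0.31 ± 0.18, adjusted p = 0.153). The value differed with the control line and was 0.64 against white RNAi alone (adjusted p = 0.0209) and -0.016 against GFP RNAi alone (adjusted p = 0.956). ProsB5 RNAi replicates held 764, 1282 and 846 CPM and ProsB1 RNAi replicates 1073, 1020 and 985 CPM, both inside the range of the controls.

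Hsc70-4 encodes the constitutive cytosolic Hsp70, which also strips clathrin from vesicles. It held 2714, 2283 and 2374 CPM in Ter94 RNAi replicates and 2251, 2465 and 2118 CPM in ProsB5 RNAi replicates, against 1879, 2123 and 2089 CPM in white RNAi and 1928, 1935 and 1666 CPM in GFP RNAi thoraces. All Ter94 RNAi libraries and 2 of 3 ProsB5 RNAi libraries lay above all 6 controls. Hsc70-4 rose 1.26-fold in Ter94 RNAi thoraces (log2 0.34 ± 0.075, adjusted p = 0.00185) and was called in 18 of 18 alternatives, with an adjusted p of at most 0.0211. It rose 1.18-fold in ProsB5 RNAi thoraces (log2 0.24 ± 0.075, adjusted p = 0.028), in 10 of 18 alternatives. That call was lost against white RNAi alone (adjusted p = 0.187) and without ProsB5 RNAi replicate 1 or 2, white RNAi replicate 1 or 3, or GFP RNAi replicate 3 (adjusted p = 0.0501 to 0.184). In ProsB1 RNAi thoraces it stood at 1936, 1785 and 1745 CPM, below all ProsB5 RNAi libraries and within the controls (log2 -0.086 ± 0.076, adjusted p = 0.469). CG6272 RNAi replicates held 1694, 1879 and 2094 CPM, also within the controls (log2 -0.033 ± 0.096, adjusted p = 0.811).

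The difference of Hsc70-4 between the proteasome knockdowns was tested directly. It was 1.25-fold higher in ProsB5 than in ProsB1 RNAi thoraces (log2 0.33 ± 0.087, adjusted p = 0.0474, and 0.0456 with replicate number as a block). It was the only 1 of the 7 called there, where 5.97% of all genes were called, 3.41% higher and 2.56% lower. Its libraries did not overlap, as in 11.9% of all genes in that direction. The p lay close to the threshold and missed it without any 1 ProsB1 RNAi replicate and without ProsB5 RNAi replicate 1 or 2 (adjusted p = 0.0679 to 0.181). Droj2 was lower in all ProsB5 RNAi libraries than in any ProsB1 RNAi library, as were 11.5% of all genes, but did not pass (log2 -0.2 ± 0.073, adjusted p = 0.153). Hsc70-4 was also 1.2-fold higher in Ter94 RNAi thoraces than in the mean of the proteasome knockdowns (log2 0.26 ± 0.075, adjusted p = 0.00956), in 15 of 15 alternatives. That mean pools the proteasome knockdowns, which themselves differed in Hsc70-4. The Ter94 RNAi libraries (2283 to 2714 CPM) overlapped those of ProsB5 RNAi (2118 to 2465 CPM) and lay above those of ProsB1 RNAi (1745 to 1936 CPM). Ter94 RNAi was not tested against ProsB5 RNAi alone.

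DnaJ-1 and Droj2 encode J-domain proteins, which deliver clients to Hsp70 and start its ATP cycle. DnaJ-1, an Hsp40 of the DnaJB type, is heat-inducible. Its replicates stood at 157, 121 and 121 CPM in Ter94 RNAi, 126, 233 and 247 CPM in ProsB5 RNAi, 163, 219 and 157 CPM in ProsB1 RNAi and 85.7, 86.8 and 159 CPM in CG6272 RNAi thoraces, against 118, 273 and 293 CPM in white RNAi and 144, 105 and 132 CPM in GFP RNAi thoraces. No knockdown separated from the 6 controls, which spread over 104.6 to 293 CPM. DnaJ-1 passed in no thorax comparison, with log2 fold changes of -0.36 ± 0.28 for Ter94, 0.25 ± 0.27 for ProsB5, 0.079 ± 0.27 for ProsB1 and -0.62 ± 0.32 for CG6272 RNAi (adjusted p = 0.281, 0.543, 0.871 and 0.167). Its SE was the largest of the 7 in each of these fits. For Ter94 RNAi it was called lower in 1 of 18 alternatives, the one that drops the Acp36DE-rich libraries (log2 -0.49, adjusted p = 0.0281, in a range of 0.0281 to 0.884).

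Droj2, a J-domain protein of the DnaJA type, varied the least between replicates of control lines. It held 617, 516 and 517 CPM in Ter94 RNAi, 464, 549 and 527 CPM in ProsB5 RNAi and 491, 510 and 454 CPM in CG6272 RNAi thoraces, against 567, 582 and 595 CPM in white RNAi and 676, 671 and 672 CPM in GFP RNAi thoraces. The ProsB5 and CG6272 RNAi libraries lay below all 6 controls, and so did 2 of 3 Ter94 RNAi libraries. Droj2 fell to 0.823 times the control level in ProsB5 RNAi thoraces (log2 -0.28 ± 0.064, adjusted p = 0.00503), to 0.776 times in CG6272 RNAi thoraces (log2 -0.37 ± 0.069, adjusted p = 0.00866) and to 0.875 times in Ter94 RNAi thoraces (log2 -0.19 ± 0.063, adjusted p = 0.0196). The size of the fall depended on the control line. Against white RNAi alone the log2 fold changes were -0.18, -0.26 and -0.088, and none passed (adjusted p = 0.0968, 0.064 and 0.319). The Ter94 RNAi call was also lost without Ter94 RNAi replicate 2 or 3 (adjusted p = 0.114 and 0.113). When Acp36DE-rich libraries were dropped, the calls for ProsB5 and CG6272 RNAi were lost (log2 -0.23 and -0.39, adjusted p = 0.104 and 0.217), and when ninaE-rich controls were dropped, those for Ter94 and CG6272 RNAi (log2 -0.2 and -0.37, adjusted p = 0.073 and 0.151). The fold changes stayed close to those with all libraries. In ProsB1 RNAi thoraces, at 581, 601 and 587 CPM, Droj2 lay within the controls (log2 -0.084 ± 0.063, adjusted p = 0.384).

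Most thorax groups overlapped in the ratio of the J-domain genes. Per kb, Droj2 stood 3.57 to 3.89 times as high as DnaJ-1 in Ter94 RNAi, 1.94 to 3.35 times in ProsB5 RNAi, 2.50 to 3.42 times in ProsB1 RNAi and 2.60 to 5.35 times in CG6272 RNAi thoraces, against 1.85 to 4.39 times in white RNAi and 4.28 to 5.84 times in GFP RNAi thoraces, with no test. Within white RNAi, replicate 1 stood at 4.39 and replicates 2 and 3 at 1.95 and 1.85.

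**Figure D3:**
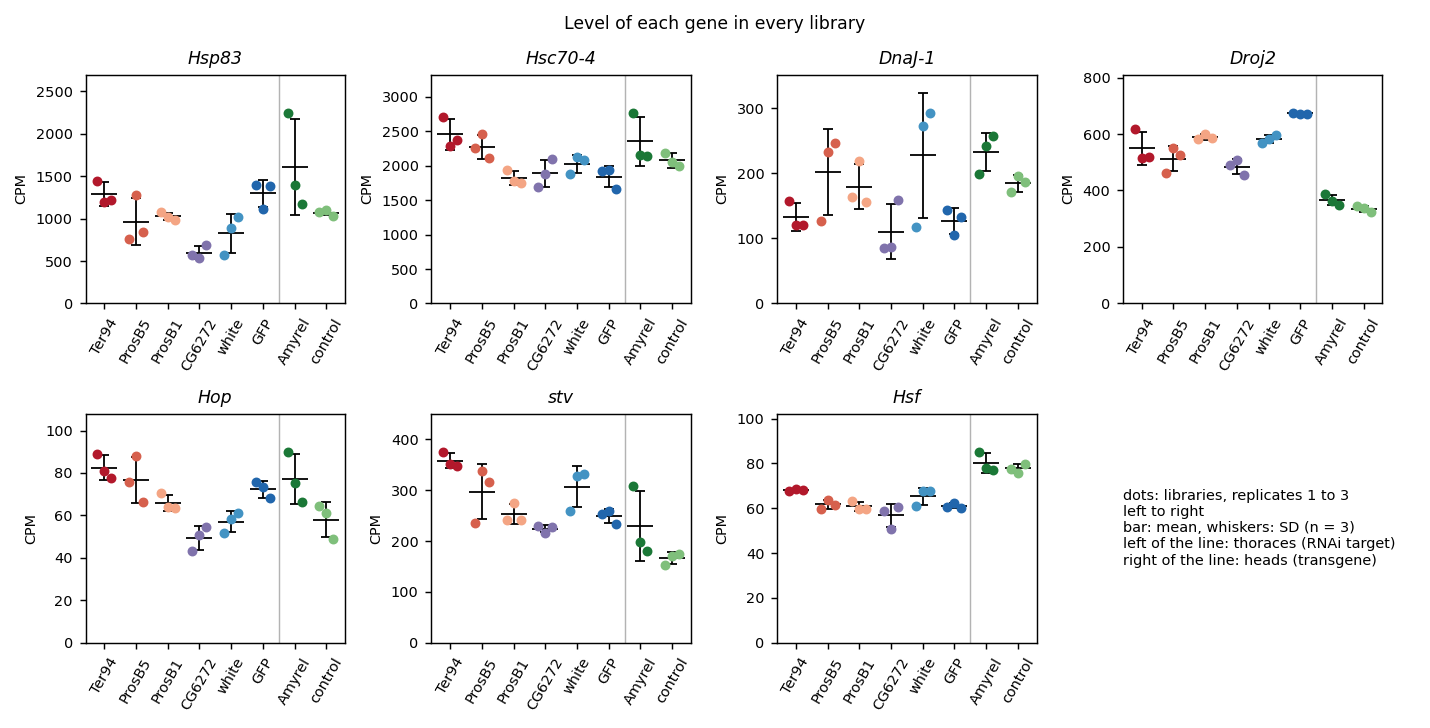
Level of each gene in CPM (vertical axis, from 0) in every library, by group, with dots for replicates 1 to 3 from left to right, bars for means and whiskers for the SD of 3 libraries. The Ter94 RNAi dots of Hsc70-4, Hop, stv and Hsf lie above all dots of the white and GFP RNAi controls, and the ProsB5 and CG6272 RNAi dots of Droj2 below them.

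Hop is the symbol the count files use for Stip1, the Hsp70/Hsp90 organizing protein, and not for the JAK kinase gene hop, which has a row of its own. Its replicates held 89.0, 81.0 and 77.5 CPM in Ter94 RNAi, 75.7, 87.9 and 66.2 CPM in ProsB5 RNAi and 43.2, 50.8 and 54.4 CPM in CG6272 RNAi thoraces, against 51.8, 58.4 and 61.3 CPM in white RNAi and 75.7, 73.3 and 68.0 CPM in GFP RNAi thoraces. All Ter94 RNAi libraries lay above all 6 controls, and the others overlapped them. Hop rose 1.28-fold in Ter94 RNAi thoraces (log2 0.35 ± 0.083, adjusted p = 0.00289), in 17 of 18 alternatives, the exception being GFP RNAi alone as control (log2 0.18, adjusted p = 0.133). It rose 1.2-fold in ProsB5 RNAi thoraces (log2 0.26 ± 0.084, adjusted p = 0.0338) in 8 of 18 alternatives, and against GFP RNAi alone the log2 fold change was 0.088 (adjusted p = 0.558). The ProsB5 RNAi call was lost without ProsB5 RNAi replicate 1 or 2, white RNAi replicate 1 or 2, or GFP RNAi replicate 2 or 3 (adjusted p = 0.0612 to 0.279).

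In CG6272 RNAi thoraces Hop fell to 0.769 times the control level (log2 -0.38 ± 0.094, adjusted p = 0.0242). Against white RNAi alone it did not pass (log2 -0.21, adjusted p = 0.196), nor without CG6272 RNAi replicate 1, white RNAi replicate 2 or 3, or GFP RNAi replicate 2 (adjusted p = 0.0568 to 0.0638). In ProsB1 RNAi thoraces Hop stood at 70.3, 63.8 and 63.3 CPM, within the controls (log2 0.034 ± 0.084, adjusted p = 0.816). It was 1.16-fold higher in Ter94 RNAi than in proteasome RNAi thoraces (log2 0.21 ± 0.084, adjusted p = 0.0491), in 5 of 15 alternatives only, and the call was lost without ProsB1 RNAi replicate 2 or 3, ProsB5 RNAi replicate 1 or 3, or Ter94 RNAi replicate 1 or 2 (adjusted p = 0.0528 to 0.136). The Ter94 RNAi libraries (77.5 to 89.0 CPM) overlapped those of ProsB5 RNAi (66.2 to 87.9 CPM), and this pair was not tested alone.

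The BAG protein gene stv held 375, 351 and 348 CPM in Ter94 RNAi thoraces, against 260.1, 327 and 333 CPM in white RNAi and 254, 260.2 and 234 CPM in GFP RNAi thoraces. The Ter94 RNAi libraries lay above all 6 controls, by a narrow margin over white RNAi replicates 2 and 3. stv rose 1.29-fold (log2 0.37 ± 0.11, adjusted p = 0.00973) in 16 of 18 alternatives, and against white RNAi alone the log2 fold change was 0.22 (adjusted p = 0.154), while without the controls high in ninaE it was 0.31 (adjusted p = 0.0599). CG6272 RNAi libraries held 229, 216 and 227 CPM, just below the lowest control. stv fell there to 0.811 times the control level (log2 -0.3 ± 0.093, adjusted p = 0.0472), but in 5 of 18 alternatives only. Leaving out any 1 of the 9 libraries except white RNAi replicate 1 gave an adjusted p of 0.0613 to 0.108, and GFP RNAi alone as control gave 0.318.

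In ProsB5 RNAi thoraces stv stood at 236, 338 and 317 CPM (log2 0.11 ± 0.11, adjusted p = 0.501), and in ProsB1 RNAi thoraces at 241, 276 and 242 CPM (log2 -0.13 ± 0.11, adjusted p = 0.443). Both overlapped the controls. The direct test put stv 1.3-fold higher in Ter94 RNAi than in proteasome RNAi thoraces (log2 0.38 ± 0.11, adjusted p = 0.00846), in 15 of 15 alternatives, and the Ter94 RNAi libraries lay above all 6 proteasome RNAi libraries.

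Hsf varied the least of the 7 over the 18 thorax libraries, with a coefficient of variation of 7.22%, against 38.6% for DnaJ-1, the most variable. It held 67.9, 68.7 and 68.3 CPM in Ter94 RNAi thoraces, against 61.0, 67.7 and 67.5 CPM in white RNAi and 60.7, 62.3 and 60.1 CPM in GFP RNAi thoraces. The lowest Ter94 RNAi library exceeded the highest control by less than 1 CPM. Hsf rose 1.08-fold in the test (log2 0.11 ± 0.039, adjusted p = 0.035) in 9 of 18 alternatives, and the call was lost with DESeq2 (adjusted p = 0.0532), against white RNAi alone (0.324) and without Ter94 RNAi replicate 2 or 3 or white RNAi replicate 1 (0.0629 to 0.0887). ProsB5 RNAi replicates held 59.7, 63.8 and 61.5 CPM, ProsB1 RNAi replicates 63.1, 59.7 and 59.5 CPM and CG6272 RNAi replicates 58.8, 50.9 and 60.7 CPM. These overlapped the controls, and none passed (adjusted p = 0.633, 0.358 and 0.146). In the direct test Hsf was 1.11-fold higher in Ter94 RNAi than in proteasome RNAi thoraces (log2 0.15 ± 0.039, adjusted p = 0.00599), in 15 of 15 alternatives.

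Set against the mean of the proteasome knockdowns, Ter94 RNAi thoraces had 4 of the 7 genes higher (Hsc70-4, Hop, stv and Hsf) and 0 lower, where 57.1% of all genes were called, 27.4% higher and 29.6% lower. The libraries of stv and Hsf lay wholly above, as did those of 24.5% of all genes. Those of Hsc70-4 and Hop overlapped the ProsB5 RNAi libraries and lay above all ProsB1 RNAi libraries. Hsp83 and DnaJ-1 did not pass (log2 0.36 ± 0.18 and -0.53 ± 0.28, adjusted p = 0.0992 and 0.125), nor did Droj2 (log2 -0.009 ± 0.063, adjusted p = 0.915). Without ProsB5 RNAi replicate 2 Hsp83 was called higher (adjusted p = 0.0136), and without ProsB5 RNAi replicate 1 DnaJ-1 was called lower (adjusted p = 0.0458), in ranges of 0.0136 to 0.25 and 0.00411 to 0.302 over 15 alternatives.

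Marker sums of other cell types lay outside the controls in some of these groups and overlapped them in others. Their part in the results was not tested. The summed level of 6 gut genes was 82.4 to 343 CPM in Ter94 RNAi, 1204 to 2524 CPM in ProsB5 RNAi, 1250 to 1852 CPM in ProsB1 RNAi and 886 to 1857 CPM in CG6272 RNAi thoraces, against 1026 to 1341 CPM in control RNAi thoraces. All 6 gut genes had reads in each group but white RNAi, with 5 of 6. The 6 haemocyte genes summed to 301 to 358 CPM in Ter94 RNAi, 599.5 to 624.5 CPM in ProsB5 RNAi, 453.6 to 503.3 CPM in ProsB1 RNAi and 341 to 376 CPM in CG6272 RNAi thoraces, against 369.6 to 464.6 CPM in controls. The 6 fat body genes summed to 7373 to 8294 CPM in Ter94 RNAi, 11210 to 14590 CPM in ProsB5 RNAi, 9440 to 10200 CPM in ProsB1 RNAi and 7631 to 10560 CPM in CG6272 RNAi thoraces, against 7213 to 8917 CPM in controls. The 6 neuron genes summed to 1068 to 1346 CPM in Ter94 RNAi, 878 to 929 CPM in ProsB5 RNAi, 865 to 992 CPM in ProsB1 RNAi and 530.5 to 1126 CPM in CG6272 RNAi thoraces, against 863 to 1127 CPM in controls. The 10 muscle genes summed to 19990 to 20430 CPM in Ter94 RNAi, 14200 to 17080 CPM in ProsB5 RNAi, 15380 to 17080 CPM in ProsB1 RNAi and 15630 to 17650 CPM in CG6272 RNAi thoraces, against 17420 to 23130 CPM in controls. Every haemocyte, fat body, neuron and muscle gene had reads in every group.

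The control lines themselves differed. Between white and GFP RNAi thoraces Hop passed (log2 -0.34 ± 0.098, adjusted p = 0.0389), where 12.9% of all genes were called, 6.79% higher and 6.09% lower, and 6 of the 7 had an unadjusted p under 0.05, against 28% of all genes. Hsp83, Droj2 and Hop were lower in all white RNAi libraries than in any GFP RNAi library, and 16.7% of all genes separated in that direction. The log2 fold changes were -0.65 ± 0.21 for Hsp83 (adjusted p = 0.059), -0.21 ± 0.073 for Droj2 (adjusted p = 0.0806), 0.85 ± 0.32 for DnaJ-1 (adjusted p = 0.101), 0.3 ± 0.12 for stv (adjusted p = 0.134) and 0.1 ± 0.046 for Hsf (adjusted p = 0.168). Hsc70-4 differed by 0.14 ± 0.087 (adjusted p = 0.324). The call of Hop was lost without white RNAi replicate 1 or 2 or GFP RNAi replicate 1 or 2 (adjusted p = 0.0747 to 0.135). Without white RNAi replicate 1 DnaJ-1 and Hsf were called higher (adjusted p = 0.0158 and 0.0497), and without white RNAi replicate 3 Hsp83 was called lower (adjusted p = 0.0431). Since ProsB1, ProsB5, Ter94 and CG6272 RNAi share these control libraries, their values are not independent of each other.

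Heads of flies with Amyrel in muscle held 2248, 1397 and 1174 CPM of Hsp83, against 1077, 1098 and 1036 CPM in control heads. DnaJ-1 stood at 199, 242 and 257 CPM in Amyrel heads and at 171, 196.0 and 186 CPM in control heads. Of stv there were 308.5, 199.0 and 180.2 CPM in Amyrel heads and 152, 172 and 175 CPM in control heads. In each of these genes all Amyrel heads lay above all control heads. Hop held 89.9, 75.4 and 66.3 CPM in Amyrel heads and 64.5, 60.9 and 48.8 CPM in control heads, and Droj2 387, 364 and 349.7 CPM in Amyrel heads and 344, 337 and 324 CPM in control heads. In 5 of the 7 genes, then, all Amyrel heads lay above all control heads, whereas 9.35% of all genes separated in that direction.

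None of the 7 passed in heads. The log2 fold changes were 0.6 ± 0.22 for Hsp83, 0.48 ± 0.19 for stv, 0.42 ± 0.14 for Hop, 0.35 ± 0.095 for DnaJ-1 and 0.14 ± 0.061 for Droj2 (adjusted p = 0.272, 0.315, 0.241, 0.149 and 0.351). Hsc70-4, at 2771, 2157 and 2136 CPM in Amyrel heads and 2192, 2051 and 1990 CPM in control heads, overlapped (log2 0.19 ± 0.12, adjusted p = 0.523). So did Hsf, at 85.1, 77.7 and 77.2 CPM in Amyrel heads and 77.4, 75.9 and 79.9 CPM in control heads (log2 0.054 ± 0.055, adjusted p = 0.723). Replicate numbers were taken to pair the head libraries, on correlations of deviations from group means of 0.155 to 0.237. The main fit had no replicate block. With replicate number as a block Hop was called (log2 0.42, adjusted p = 0.0367, in a range of 0.0367 to 0.521 over 10 alternatives). DESeq2 called DnaJ-1 and Hop (adjusted p = 0.0177 and 0.0497), and without Amyrel head replicate 1 DnaJ-1 was called (log2 0.45, adjusted p = 0.0265, in a range of 0.0177 to 0.345).

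Amyrel head replicate 1 stood apart from replicates 2 and 3. It was the highest of the 3 for Hsp83, Hsc70-4, Droj2, Hop, stv and Hsf and the lowest for DnaJ-1. The inducible Hsp70 copies and Hsp68 together stood at 1543, 620.4 and 354 CPM in the Amyrel heads, and at 99.0, 141 and 137 CPM in the control heads. The ratio of Hsc70-4 to Hsp83, per kb, was 1.34, 1.68 and 1.98 in Amyrel heads, against 2.22, 2.04 and 2.09 in control heads, so that Hsp83 was relatively more abundant in each Amyrel head library. Reads of the near-identical Hsp70 copies are hard to assign to 1 copy, and the sum avoids that.

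**Figure D4:**
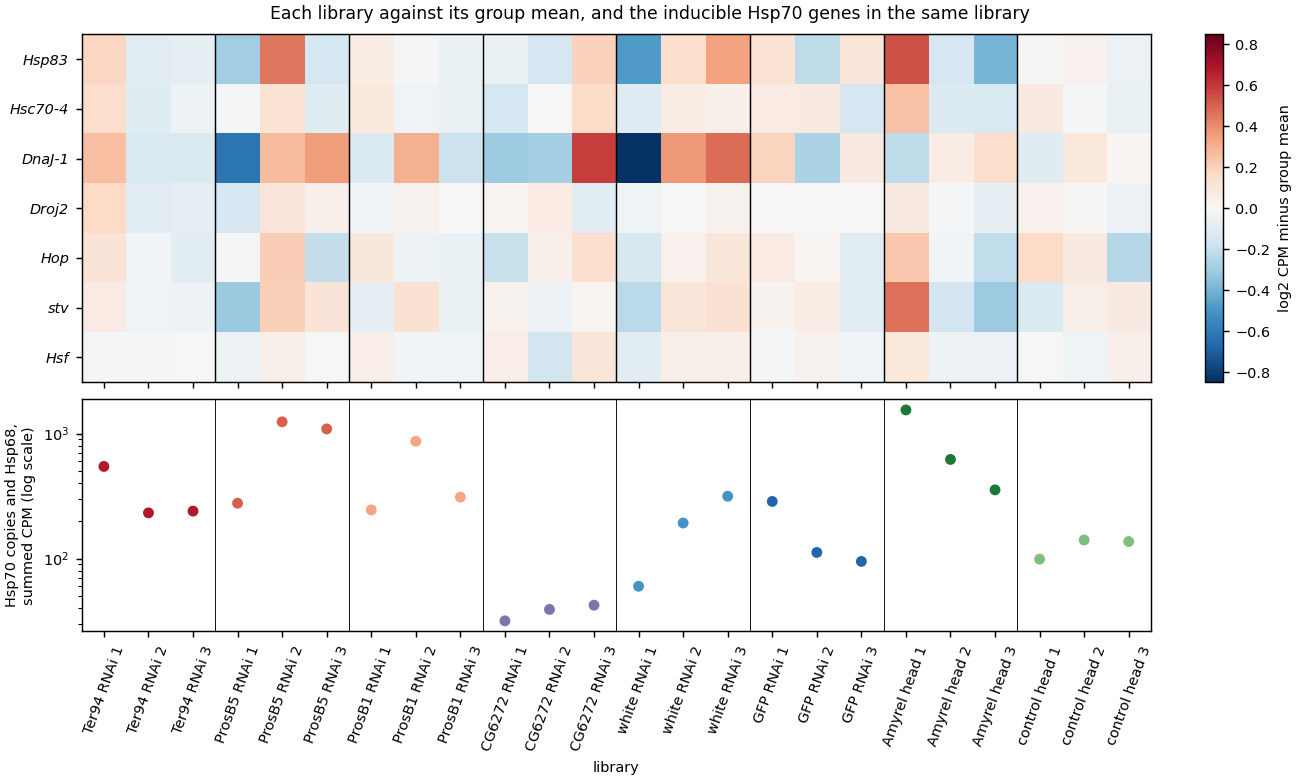
Above, the deviation of each library from its group mean in log2 CPM (colour) for each gene (rows), and below, the summed CPM of the inducible Hsp70 copies and Hsp68 in the same libraries (log scale). Amyrel head 1 is high for Hsp83 and stv, white RNAi 1 and ProsB5 RNAi 1 are low for DnaJ-1 and Hsp83, and the Hsp70 sum is also highest in Amyrel head 1 and lowest within their groups in the other pair.

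In thoraces too, single libraries carried much of the spread. White RNAi replicate 1 was the lowest of its group for all 7 genes, with an Hsp70 and Hsp68 sum of 60.1 CPM beside 193 and 315 CPM in replicates 2 and 3. ProsB5 RNAi replicate 1 was the lowest of its group for Hsp83, DnaJ-1, Droj2, stv and Hsf, with a sum of 277 CPM beside 1240 and 1088 CPM. Ter94 RNAi replicate 1 was the highest of its group for all but Hsf, with a sum of 545 CPM beside 232 and 239.8 CPM. What set these libraries apart was not tested.

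Chaperone genes outside the 7 were counted by list, and several changed by more than any of the 7. The counts are to be read beside the shares of all genes. These were 29.7% higher and 28.4% lower for Ter94, 17.3% and 13.8% for ProsB5 and 11.6% and 9.73% for ProsB1 RNAi. For CG6272 RNAi they were 13.3% and 9.53%, and for Amyrel heads 0.791% and 0.716%. The lists hold none of the 7, and some genes, such as Hsc70Cb and the ER J-domain protein P58IPK, stand in more than 1 list. Of 10 Hsp70 and Hsp110 genes 7 were higher and 1 lower in ProsB5 RNAi thoraces, with a median log2 fold change of 2.28, among them Hsp70Ba at 2.83 ± 0.59 (adjusted p = 0.0032) and Hsp70Bb at 2.6 ± 0.58 (adjusted p = 0.00457). Most of this list is the near-identical copies Hsp70Aa, Hsp70Ab, Hsp70Ba, Hsp70Bb, Hsp70Bbb and Hsp70Bc. Their reads are hard to assign to 1 copy, so its counts and medians are not those of independent genes. In CG6272 RNAi thoraces 8 of these 10 were lower and 1 higher, with a median of -1.9, while Hsc70-4 was not called. The Hsp70 and Hsp68 sum was 31.8 to 42.4 CPM there, against 60.1 to 315 CPM in control RNAi thoraces. In Amyrel heads 5 of the 10 were higher and 0 lower, with a median of 1.54. In Ter94 RNAi thoraces, where Hsc70-4, Hop and stv rose, 1 was higher and 1 lower, with a median of 0.791. For ProsB1 RNAi 1 of the 10 was higher and 0 lower, with a median of 1.46. The Hsp70 and Hsp68 sum was 232 to 545 CPM in Ter94 RNAi, 245 to 866 CPM in ProsB1 RNAi and 277 to 1240 CPM in ProsB5 RNAi thoraces. Each of these ranges overlapped that of the controls, and the sum was not tested.

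Of 12 further Hsp90 partners 5 were higher and 2 lower in Ter94 RNAi, 2 higher and 1 lower in ProsB5 RNAi, 2 higher and 2 lower in ProsB1 RNAi and 0 higher and 2 lower in CG6272 RNAi thoraces. FKBP59, an immunophilin that binds Hsp90, fell in each of these 4, by 0.43 ± 0.073 on the log2 scale in Ter94 RNAi thoraces (adjusted p = 0.000269). unc-45, which folds myosin together with Hsp90, fell by 0.37 ± 0.094 in CG6272 RNAi thoraces (adjusted p = 0.0263), as Hsp83 and Hop did.

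Of 27 other J-domain genes tested in the shared thorax fit 10 were higher and 8 lower for Ter94, 5 higher and 7 lower for ProsB5 and 1 higher and 0 lower for ProsB1 RNAi. For Ter94 RNAi these counts are not far from the shares of all genes, 29.7% higher and 28.4% lower. CG6272 RNAi thoraces had 1 of 26 higher and 1 lower. DnaJ-H rose in Ter94 RNAi thoraces to 183 ± 12 CPM, against 88.3 ± 2.9 CPM in controls (log2 1.04 ± 0.048, adjusted p = 6.53e-09), and CG7130 rose there to 25.9 ± 3.5 CPM, against 4.68 ± 1.02 CPM (log2 2.46 ± 0.18, adjusted p = 2.36e-07). CG7130 also rose in ProsB5 RNAi thoraces, to 9.47 ± 2.4 CPM (log2 1.02 ± 0.19, adjusted p = 0.00132). Both changes were larger than any of the 7 genes showed in these comparisons.

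Among the other exchange factors and regulators of Hsp70, 4 genes in all, Hsc70Cb fell in CG6272 RNAi thoraces (log2 -0.4 ± 0.098, adjusted p = 0.0231), where stv fell too, and CG10973 rose in Ter94 RNAi thoraces (log2 0.53 ± 0.075, adjusted p = 6.41e-05), where stv rose. Hsc70Cb is the fly Hsp110, an exchange factor. ProsB5 and ProsB1 RNAi changed 0 of the 4. Of the 8 subunits of the TRiC chaperonin, which folds actin and tubulin, 8 rose in ProsB5 RNAi, 3 in Ter94 RNAi and 0 in ProsB1 and CG6272 RNAi thoraces, and T-cp1 rose by 0.51 ± 0.077 log2 units in ProsB5 RNAi (adjusted p = 0.000345). Of 6 prefoldin subunits, which hand actin and tubulin to TRiC, 3 rose in ProsB5 RNAi thoraces, 1 in CG6272 RNAi and 0 in the other knockdowns.

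Of 10 small heat shock proteins tested 7 were higher and 2 lower in Ter94 RNAi and 5 higher and 2 lower in ProsB5 RNAi thoraces. The median log2 fold changes were 0.718 and 0.272. In ProsB1 RNAi thoraces 2 were higher, and in CG6272 RNAi thoraces 2 were higher and 2 lower. Hsp23, which binds unfolding proteins, rose in Amyrel heads, with 1321, 437.6 and 175.5 CPM against 21.4, 23.7 and 26.8 CPM in control heads (log2 4.77 ± 0.71, adjusted p = 0.0236), and it was highest in the replicate that was highest for Hsp83. In the ER, 4 of 8 chaperones and co-chaperones of the Hsp70 and Hsp90 families rose in Ter94 RNAi, 6 in ProsB5 RNAi and 3 in ProsB1 RNAi thoraces, and Hsc70-3 (BiP) fell in CG6272 RNAi thoraces (log2 -0.36 ± 0.1, adjusted p = 0.0377). Of 11 mitochondrial chaperones 5 were higher and 2 lower in Ter94 RNAi and 1 higher and 1 lower in ProsB5 RNAi thoraces, and of 10 tested in the CG6272 fit 1 was higher and 1 lower.

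Of 9 genes listed with Hsf, among them general factors of RNA polymerase pausing, 3 were higher and 2 lower in Ter94 RNAi thoraces. In ProsB1 RNAi and in CG6272 RNAi thoraces 1 was higher and 1 lower, and in ProsB5 RNAi thoraces 0 of 9 were called. Spt5, a factor of RNA polymerase pausing at heat shock genes, rose in Ter94 RNAi thoraces (log2 0.38 ± 0.045, adjusted p = 1.29e-05). Nelf-E, a subunit of the negative elongation factor that holds the paused polymerase, rose in ProsB1 RNAi thoraces (log2 0.54 ± 0.043, adjusted p = 5.42e-06). It differed by as much between the control lines, at 14.2 ± 0.55 CPM in white RNAi and 9.96 ± 0.068 CPM in GFP RNAi thoraces (log2 0.52 ± 0.051, adjusted p = 4.63e-05).

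**Figure D5:**
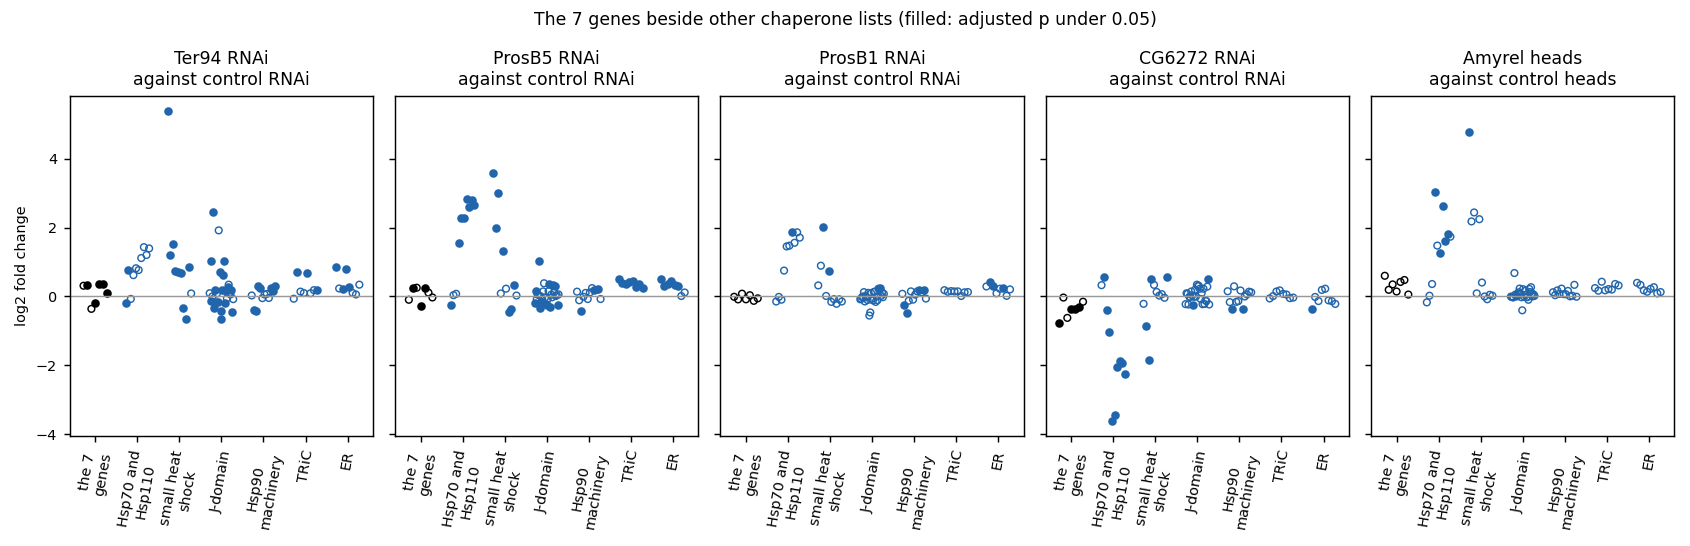
Log2 fold change (vertical axis) of the 7 genes (black) beside 6 lists of other chaperones (blue) in 5 comparisons, 1 point a gene, filled at an adjusted p under 0.05. The 7 genes stay within 1 log2 unit of 0, while Hsp70 and small heat shock genes spread over several units. Hsp70 genes lie mostly above 0 in the ProsB5 RNAi and Amyrel panels and mostly below 0 in the CG6272 RNAi panel. They also lie mostly above 0 for Ter94 and ProsB1 RNAi, with few points filled. Small heat shock genes lie mostly above 0 in the Ter94 RNAi panel and less so in the ProsB5 RNAi panel.

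Between control heads and control RNAi thoraces 1 of the 7 genes lay wholly higher, 2 lay wholly lower and 4 overlapped. No test was made, since tissue and genotype cannot be told apart there. Of 10259 genes tested in both tissues, 36.7% lay wholly higher and 34.4% wholly lower in the heads. Control heads held 324 to 344 CPM of Droj2 and 152 to 175 CPM of stv, below all 6 control thoraces with 567 to 676 and 234 to 333 CPM. Hsf stood at 75.9 to 79.9 CPM in control heads, above all control thoraces with 60.1 to 67.7 CPM. The heads were recognisable as such, since 10 photoreceptor genes summed to 69280 to 70070 CPM in control heads and 127 to 1084 CPM in control thoraces.

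Ordered by mean level, neighbouring groups of a gene mostly overlapped. Hsc70-4, DnaJ-1 and Hop had no pair of neighbours whose libraries were apart. In Hsp83 1 of 7 neighbouring pairs was apart, with Ter94 RNAi thoraces above control heads. Droj2 had 3 pairs apart, and stv and Hsf 2 each. Groups were sorted by these same means, which makes overlap of neighbours likely, and the share over all genes was not counted. The counts are therefore a description and no trait of the 7 genes. The order ran from Ter94 RNAi thoraces (2457 CPM) to ProsB1 RNAi thoraces (1822 CPM) for Hsc70-4 and from Amyrel heads (1606 CPM) to CG6272 RNAi thoraces (600.0 CPM) for Hsp83.

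Over the 15 thorax libraries other than those of CG6272 RNAi, stv and Hsf ran together the most of all pairs of the 7, with a Pearson correlation of log2 CPM of 0.85, followed by Hsc70-4 and stv at 0.786 and Hsp83 and Hop at 0.727. Droj2 and Hsc70-4 had the lowest, at -0.48. These libraries share their groups, so the values describe group means as much as libraries. Among 8419 genes with a mean of at least 5 CPM, the 3 most like Hsc70-4 were Rpn3 (0.928), Nmda1 and Roc1a, of which Rpn3 is a subunit of the proteasome's regulatory particle. CG9281, CG14688 and Rab35 were the 3 most like both stv (0.941 to 0.948) and Hsf (0.903 to 0.932). Droj2 was most like CG9705, Hsc70-1 and trbd (0.927 to 0.938), Hop most like CG2061, CG11267 and Ilp6 (0.886 to 0.897), and Hsp83 most like CG15877, MED16 and CG7065 (0.844 to 0.883). DnaJ-1 had the weakest likeness of the 7, with vimar, CG34148 and foi at 0.753 to 0.765.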

How the data were processed

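The authors deposited raw read counts per gene for each library, with no normalization. Libraries were made with a stranded TruSeq mRNA kit, per the labels' protocols, and STAR and genome build BDGP5 are named in the submitters' processing notes. The counting tool, its strand setting and the annotation are not named in the sources used here. The 5 summary rows of each file (19.38 to 31.25% of all its reads) were left out. No 2 libraries were identical.

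In R 4.3.3 with edgeR 4.0.16, filterByExpr removed low genes (count minimum 10, total minimum 15), TMM set the scaling, and group means were compared with two-sided quasi-likelihood F tests, with Benjamini-Hochberg adjusted p-values across every gene in the fit. SEs were taken as |log2 fold change|/√F. The Ter94, ProsB5, ProsB1, white and GFP RNAi libraries shared 1 fit of 15 libraries, with the mean of white and GFP RNAi as control. CG6272 RNAi was fitted with the 6 controls alone, since its titles have another form, so that knockdown and batch cannot be told apart. The 6 head libraries had a fit of their own. The procedure was tested on simulated data, where a small set of genes changed by more than any of the 7 did. That test does not cover changes as small, or as widespread over all genes, as those reported here. The labels call the libraries biological replicates. All 7 genes passed the filter in every fit. CPM printed as levels are scaled over all 24 libraries, so a ratio of them can differ slightly from a fitted fold change. Reads carry no molecular identifiers.

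Exon lengths came from an Ensembl annotation of another build, so no positions are given. Of the 7, only Hsp83 overlaps an exon of another gene there, CG14966, on the opposite strand, over 15 bases.

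Replicate numbers were taken to pair libraries where every correlation of deviations from group means in a comparison exceeded 0.1. This held for ProsB5 with ProsB1 RNAi (0.149 to 0.483) and for heads (0.155 to 0.237). ProsB5 RNAi replicate 3, however, correlated more with a ProsB1 RNAi replicate of another number. With GFP RNAi alone the limit was also passed by ProsB5 RNAi (0.527 to 0.777) and ProsB1 RNAi (0.136 to 0.443). With white RNAi, replicate 2 fell below it for both (-0.445 and 0.047), so their comparisons with control RNAi were not taken as paired. Alternatives were relative log expression scaling, no filter, DESeq2 1.42.0, a replicate block, each control line alone, another set of libraries in the fit and each library left out. Leaving out the 3 control libraries with ninaE above 100 CPM, or the 4 libraries with Acp36DE above 5 CPM, was chosen after seeing the data. The members and lists were chosen with earlier results of these data known. Genes outside the 7 are named by rule: the manipulated gene, up to 3 called genes of each list per comparison by adjusted p, and the 3 genes most like each of the 7.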

Additional observations from a re-analysis of the deposited data

Results flagged for a closer look

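Of the 7 genes, those whose direct difference between knockdowns passed edgeR's test are set out here. Hsc70-4 was higher in ProsB5 than in ProsB1 RNAi thoraces by 0.326 log2 units, a call kept in 4 of 12 alternatives. Between Ter94 RNAi thoraces and the mean of the proteasome knockdowns, stv differed by 0.377, Hsc70-4 by 0.261, Hop by 0.208 and Hsf by 0.149 log2 units, all higher in Ter94 RNAi. The calls of stv, Hsc70-4 and Hsf were kept in 15 of 15 alternatives and that of Hop in 5 of 15. In these comparisons the knockdowns were set against each other and no control library entered the difference. The proteasome mean pools ProsB1 and ProsB5 RNAi thoraces, and Ter94 RNAi was not tested against either alone.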

How the results depend on the processing

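Of 854 values of the 7 genes under alternatives, 0 reversed a call, 86 lost one and 18 gained one; in 39 uncalled in both, the sign differed. Main counts called were 5 for Ter94, 3 for ProsB5, 0 for ProsB1 and 4 for CG6272 RNAi, 0 for Amyrel heads, 1 for ProsB5 against ProsB1 RNAi and 1 for white against GFP RNAi. The share of all genes called is given in brackets, since it moved with the settings too. White RNAi alone as control gave 3 for Ter94 (55.1%), 1 for ProsB5 (23.7%) and 1 for CG6272 RNAi (11.6%), and GFP RNAi alone gave 4 (51.2%), 2 (31.1%) and 3 (18.1%) in the same order. Without the control libraries high in ninaE the counts were 2 (50.3%), 1 (19.4%) and 1 (2.64%), and 0 for white against GFP RNAi (4.56%). Without the 4 libraries high in Acp36DE they were 5 for Ter94 (49.9%, with DnaJ-1 lower called and Hsf not), 0 for ProsB5 (15.1%) and 0 for CG6272 RNAi (3.13%). Fold changes there stayed about as large, at -0.91 for Hsp83 and -0.39 for Droj2 in CG6272 RNAi and 0.24 for Hsc70-4 in ProsB5 RNAi on the log2 scale. DESeq2 gave 2 for Amyrel heads (4.42%) and 3 for white against GFP RNAi (15.3%). Fitting only the groups compared gave 0 for ProsB5 against ProsB1 RNAi (3.11%) and 2 for white against GFP RNAi (10.1%), and no low-count filter gave 0 for ProsB5 against ProsB1 RNAi (3.68%). With replicate number as a block Amyrel heads had 1 (Hop, with 1.23% of all genes). The block changed no call of ProsB5 against ProsB1 RNAi (6.43%). In the comparisons not taken as paired it lost the call of stv for CG6272 RNAi (adjusted p = 0.0796, with 17.6% of all genes called).

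Leaving out 1 library at a time gave 3 to 5 for Ter94 (50 to 58.5%), 1 to 3 for ProsB5 (22 to 30.6%), 1 to 4 for CG6272 RNAi (11 to 28.4%), 0 to 1 for Amyrel heads (0.228 to 1.89%), 0 to 1 for ProsB5 against ProsB1 RNAi (3.23 to 5.35%) and 0 to 2 for white against GFP RNAi (7.21 to 11.2%). For ProsB1 RNAi every alternative gave 0, where 13 to 24% of all genes were called. The cause was not tested, beyond that leaving libraries out leaves fewer samples. With 3 libraries a group, a gene that missed the threshold is not shown to be unchanged.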
